A study of Mus musculus with 6 samples.

Results

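The semaphorin, plexin, neuropilin, Eph receptor and ephrin genes are the main families of contact and short-range guidance cues in vertebrates. They were taken from the deposited expression table as every protein-coding row whose symbol belongs to the semaphorins of classes 3 to 7, the plexins A to D, the neuropilins, the Eph receptors A and B or the ephrins A and B. This gave 53 genes among the 22046 protein-coding genes and 54532 genes of the table, made up of 20 semaphorins, 9 plexins, 2 neuropilins, 14 Eph receptors and 8 ephrins. They had been measured by RNA sequencing in 6 libraries, in 2 groups of 3. The cells were described as mouse vascular smooth muscle cells, the type that forms the muscular layer of arteries. The group labelled Ad-Con carried the genotype label WT and had received an adenoviral vector with a control plasmid. The group labelled Ad-PDK4 carried the genotype label pyruvate dehydrogenase kinase 4 overexpression and had received the same kind of vector with a plasmid for that enzyme, which sits in mitochondria and shuts down pyruvate dehydrogenase by phosphorylation. According to the study, the cells were cultured from the abdominal aorta, their purity was checked by ACTA2 staining, and angiotensin II, the hormone that raises blood pressure, was added to both groups. The labels give no strain and no age. In the study the wild-type mice were C57BL/6J, all animal experiments used males, and the methods give an age for the donor mice. The study calls the libraries of a group biological replicates, whereas the labels do not say whether they came from separate cultures, so p-values measure the spread between these libraries, which may be technical.

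Semaphorins are secreted or membrane-bound ligands that share a sema domain. Plexins are their receptors and act on small GTPases, and most class 3 semaphorins need a neuropilin as co-receptor. Eph receptors are receptor tyrosine kinases that bind ephrins on neighbouring cells and can also signal backwards through the ephrin. A-type ephrins are tethered by a lipid anchor and bind mainly EphA receptors, whereas B-type ephrins cross the membrane and bind mainly EphB receptors. In vessels these families are known for sprouting, for the boundary between arteries and veins and for the contact between mural cells and endothelium.

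Between 17588942 and 21861872 reads were assigned to genes per library. Values are FPKM, which scales fragments by gene length and library size, and 1 read in a gene of 1 kb was worth 0.0453 to 0.0571 FPKM. Pdk4 itself read 10.0 ± 0.469 FPKM in the Ad-Con libraries and 7.48 ± 0.162 FPKM in the libraries labelled Ad-PDK4 (SD, n = 3 each), which was -0.42 (SE 0.06) on the log2 scale with an adjusted p of 1.1e-03. The targeted transcript therefore went against its label, and all directions below refer to libraries by that label. The smooth muscle marker list summed to 172 to 173 FPKM in Ad-Con and 135 to 145 FPKM in Ad-PDK4. Of its 10 genes, 5 had a mean of at least 0.5 FPKM. The contractile markers Myh11, Cnn1, Tagln and Des were below that level. In reads per library, Myh11 had 2 in Ad-Con and 2 to 10 in Ad-PDK4, and Tagln 6 to 20 and 4 to 16. Cnn1 had 20 to 30 and 8 to 17, and Des 10 to 16 and 3 to 4. Acta2, smooth muscle actin, read 76.9 to 78.7 FPKM in Ad-Con and 33.5 to 38.0 FPKM in Ad-PDK4. In the same list Cald1 rose (log2 fold change 0.36, adjusted p = 0.00066) and Smtn was not called (0.02, adjusted p = 0.84). Tpm2 fell (-0.33, adjusted p = 0.0048) and Lmod1 was not called (-0.29, adjusted p = 0.36). Mylk, with a mean below 0.5 FPKM, had 122 to 188 reads per Ad-Con library and 24 to 28 per Ad-PDK4 library. A list of 8 fibroblast markers summed to 1430 to 1556 FPKM in Ad-Con and 738 to 805 FPKM in Ad-PDK4, a sum made up mostly of Col1a1. Within it Dpt (log2 fold change -1.36, adjusted p = 7.1e-06), Lum (-1.16, 0.00046), Col1a1 (-1.28, 1.3e-05) and Col3a1 (-0.86, 1.2e-05) fell. Dcn rose (0.83, adjusted p = 0.0004) and Pdgfra was not called (-0.05, adjusted p = 0.54). Dpt alone read 177 to 214 FPKM in Ad-Con and 71.4 to 76.8 FPKM in Ad-PDK4. The smooth muscle description is thus not borne out by all markers. Myh11, Cnn1, Tagln and Des were low and the fibroblast genes Col1a1 and Dpt high, while Acta2, Cald1 and Tpm2 were well expressed. Of 10 endothelial markers, 4 (Emcn, Erg, Tek and Tie1) had 3 reads or fewer in every library, and the list summed to 4.69 to 5.12 FPKM against 3.59 to 3.68. Of 10 macrophage markers, 7 including Ptprc and Adgre1 had 3 reads or fewer. The sums of 13.3 to 16.5 against 3.84 to 5.83 FPKM were mostly Cd68. Csf1r went the other way without overlap, with 11 to 35 reads per Ad-Con library and 56 to 62 per Ad-PDK4 library. Glial and neuronal markers summed to 3.86 to 4.98 against 2.56 to 4.77 FPKM with 4 of 8 genes at 3 reads or fewer, and T and B cell markers to 0.0459 to 0.279 against 0.0535 to 0.185 FPKM with 6 of 7 at 3 reads or fewer. The part of these shifts in the guidance gene results was not tested, and in bulk RNA fewer cells of a type and less RNA per cell cannot be told apart.

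Of the 53 guidance genes, 35 passed a filter of a mean of at least 0.5 FPKM over all libraries and 18 did not. The families were led by a single plexin. Plxnb2, a plexin B receptor of class 4 semaphorins that is widely made outside the nervous system, was the highest member at 110 ± 1.02 FPKM in Ad-Con and 145 ± 15.6 FPKM in Ad-PDK4, followed by Plxna1 at 33.6 ± 2.40 and 51.2 ± 6.72 FPKM. The EphB receptor Ephb4 (21.3 ± 1.27 and 18.5 ± 1.10 FPKM) and its ligand Efnb2 (16.5 ± 0.310 and 20.02 ± 0.380 FPKM) came next, and then 2 class 3 semaphorins, Sema3f (12.8 ± 0.537 and 14.2 ± 1.03 FPKM) and Sema3c (11.7 ± 0.0780 and 12.7 ± 0.917 FPKM). The order of Sema3f and Sema3c in Ad-PDK4 lay within the spread of the libraries. In Ad-Con, Ephb4 lay above Efnb2 in each library. In Ad-PDK4, Efnb2 lay above Ephb4 in each library. Only those 6 genes averaged at least 10 FPKM over all libraries, and 18 of the 35 averaged at least 5 FPKM.

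**Figure D1:**
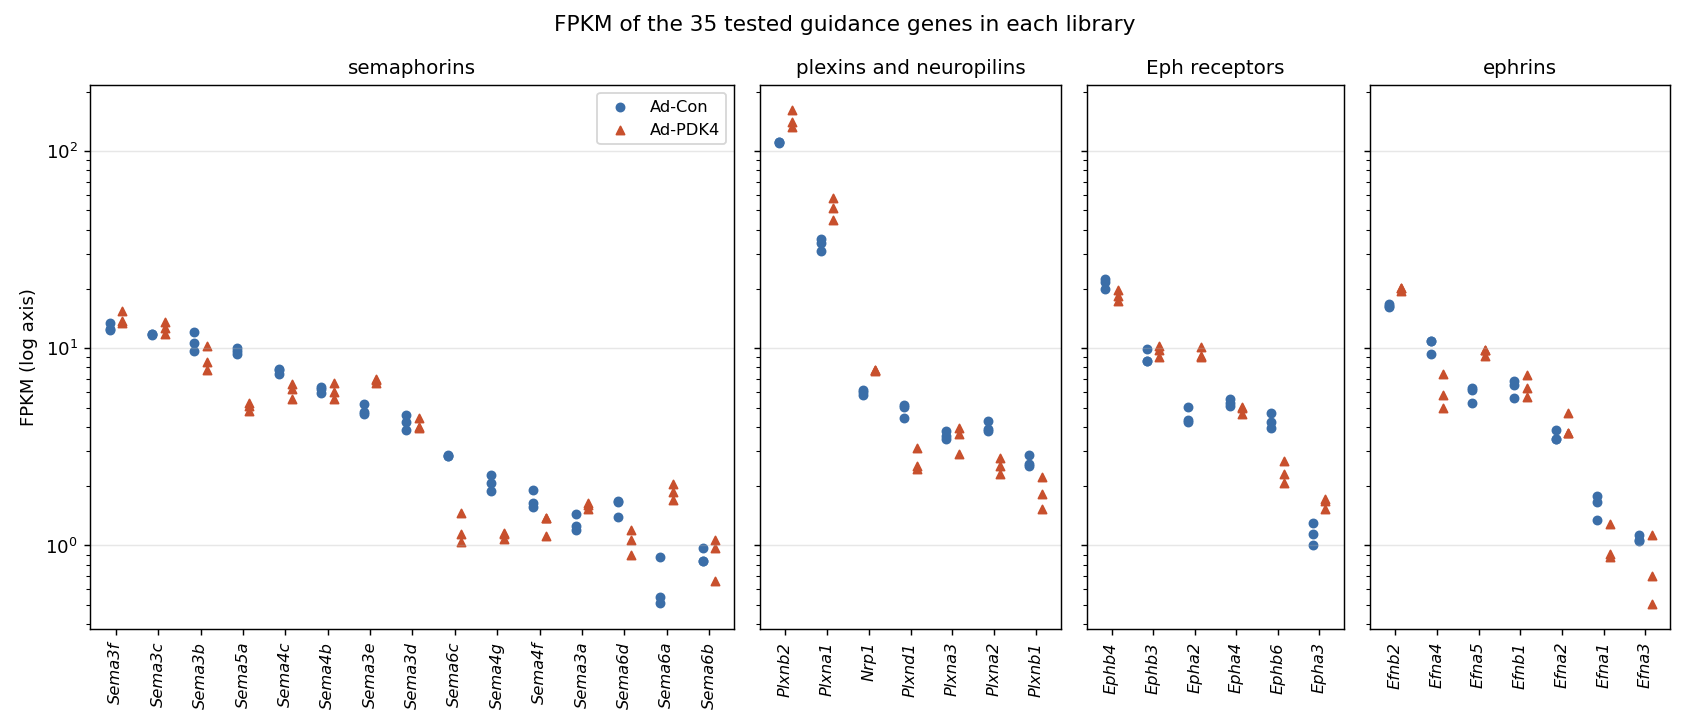
FPKM (log axis) of the 35 guidance genes that passed the filter, in each of 3 Ad-Con and 3 Ad-PDK4 libraries, with a panel for each family. Each point is a library, and Plxnb2 stands above all others at 109 to 162 FPKM.

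The comparison of the groups asked which guidance genes differed between the cells labelled with PDK4 overexpression and their controls. At an adjusted p below 0.05 (limma on log2(FPKM + 0.1), Benjamini-Hochberg over 13423 genes), 9 of the 35 tested guidance genes were higher in Ad-PDK4, or 25.7%, where 21.8% of all tested genes were higher. Another 12 were lower, or 34.3%, where 20.8% of all tested genes were lower. In either direction, 21 guidance genes were called, or 60%, against 42.7% of all genes. With a fold of at least 1.5 added, 4 were higher (11.4%, against 8.08% of all genes) and 8 were lower (22.9%, against 7.49%). With a fold of at least 2, Sema6a and Epha2 were higher (5.71%, against 3.95%) and Sema6c was lower (2.86%, against 2.68%). The shares of 2-fold calls are counts of 2 and 1 and are read as near the background. The 6 libraries of a gene did not overlap between the groups in 25 of the 35 (71.4%, against 54.3% of all genes), and these included all 21 called genes. The median log2 fold change of the tested guidance genes was -0.03, and that of all genes was -0.003. The median absolute change was 0.39 against 0.25. The members of each family moved both ways: of 15 semaphorins tested, 2 rose and 5 fell, of 6 plexins 2 rose and 3 fell, of 6 Eph receptors 2 rose and 2 fell, and of 7 ephrins 2 rose and 2 fell, while the neuropilin Nrp1 rose.

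**Figure D2:**
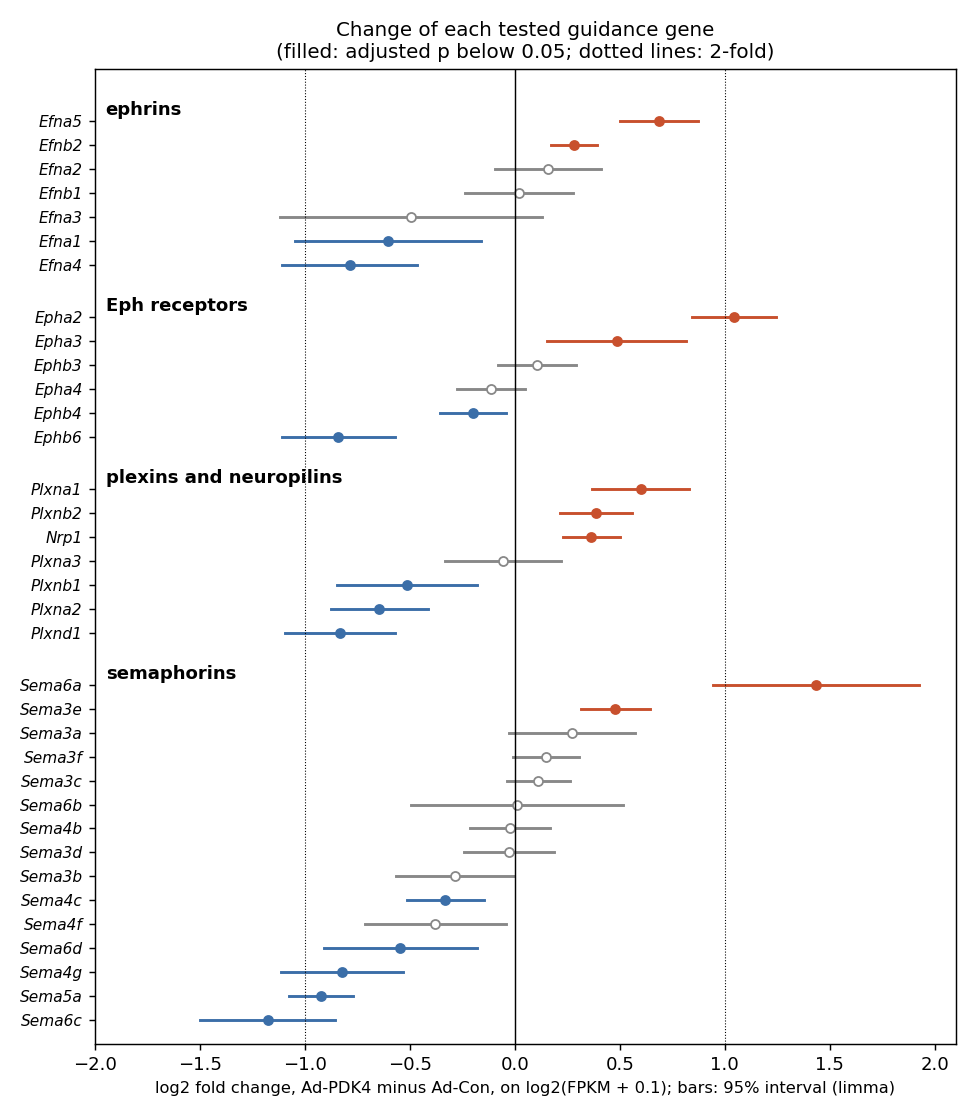
log2 fold change of each tested guidance gene (Ad-PDK4 minus Ad-Con, on log2(FPKM + 0.1)) with its 95% limma interval, ordered within families. Filled points passed an adjusted p of 0.05, dotted lines mark 2-fold, and the changes run from -1.18 for Sema6c to 1.44 for Sema6a.

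Among the semaphorins, the opposite ends were taken by members of class 6, the transmembrane semaphorins that bind plexins A directly without a neuropilin. Sema6a, a ligand of plexins A2 and A4, read 0.549, 0.869 and 0.509 FPKM in the Ad-Con libraries and 1.86, 2.04 and 1.71 FPKM in the Ad-PDK4 libraries. All Ad-PDK4 libraries lay well above the highest Ad-Con library, and the groups did not overlap. The log2 fold change was 1.44 (SE 0.21, adjusted p = 0.0012), resting on 81 to 134 reads per Ad-Con library and 297 to 331 per Ad-PDK4 library, and with a pseudocount of 1 FPKM it was 0.81.

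Sema6c, a class 6 semaphorin best known from the nervous system and skeletal muscle, moved the other way. It lies on chromosome 3 from 95160457 to 95174024 on the plus strand (GRCm38, as for all positions here). The gene read 2.83, 2.83 and 2.89 FPKM in Ad-Con and 1.14, 1.46 and 1.05 FPKM in Ad-PDK4. The Ad-Con libraries were close to each other and all Ad-PDK4 libraries were lower, with a log2 fold change of -1.18 (SE 0.14, adjusted p = 0.00037). Its RefSeq promoter (GRCm38.p6, 250 bases before to 50 after a transcription start) held the only match among the guidance genes to a motif for NF-kB, a transcription factor of inflammatory responses (both strands searched), which 1.89% of all genes with a promoter also hold. It is shown because it belongs to the most lowered member, with the match in capitals at 174 bases before the start, and no binding was measured.
Sema6c promoter, chr3:95160196-95160305, plus strand: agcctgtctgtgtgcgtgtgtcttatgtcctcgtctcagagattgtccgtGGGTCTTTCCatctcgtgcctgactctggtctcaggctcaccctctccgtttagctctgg

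Sema6d, a ligand of plexin A1 known from heart development, averaged 1.58 ± 0.155 FPKM in Ad-Con and 1.05 ± 0.149 in Ad-PDK4, a log2 fold change of -0.55 (SE 0.16, adjusted p = 0.025). This call ended when Ad-Con replicate 2 or 3, or Ad-PDK4 replicate 1 or 2, was left out (adjusted p from 0.062 to 0.083). Sema6b, the remaining class 6 gene, read 0.877 ± 0.0765 and 0.899 ± 0.211 FPKM, and its interval of -0.49 to 0.51 on the log2 scale leaves room for a change in either direction.

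Sema5a, the transmembrane class 5 semaphorin with thrombospondin repeats, showed the largest loss in FPKM among the semaphorins. The gene lies on chromosome 15 from 32244810 to 32696341 on the plus strand. It read 9.38, 10.0 and 9.65 FPKM in Ad-Con and 5.29, 5.11 and 4.78 FPKM in Ad-PDK4. Each group was tight and the groups were far apart, with a log2 fold change of -0.92 (SE 0.07, adjusted p = 2.9e-05), the smallest adjusted p of the guidance genes. Its class partner Sema5b had 0 reads in every library.

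Class 4 semaphorins are transmembrane ligands of plexins B. Sema4g (chromosome 19, 44989101 to 45003397, plus strand) read 2.08, 2.28 and 1.88 FPKM in Ad-Con and 1.16, 1.08 and 1.14 FPKM in Ad-PDK4. All Ad-PDK4 libraries were lower, with a log2 fold change of -0.82 (SE 0.13, adjusted p = 0.0014). The deposited table gave Sema4g a length of 4872 bases where the exons of the annotation cover 8661. This affects its level, and whether it affects the change was not tested. Sema4c, a plexin B2 ligand, averaged 7.68 ± 0.221 and 6.10 ± 0.552 FPKM and fell by 0.33 on the log2 scale (SE 0.08, adjusted p = 0.012). Over 7.27% of the Sema4c exon bases another gene, D430040D24Rik, is annotated on the opposite strand (0.707 ± 0.153 and 0.608 ± 0.212 FPKM), and whether counting used strand is not given in the sources used here. The promoter of Sema4c held a match to the AP-1 motif TGANTCA, 22 bases before the start. AP-1 is the Fos and Jun transcription factor of growth and stress responses. It is shown as the only AP-1 match in a called guidance gene.
Sema4c promoter, chr1:36558382-36558453, minus strand: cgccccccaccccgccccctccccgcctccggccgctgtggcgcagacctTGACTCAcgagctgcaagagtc
The other tested class 4 genes were not called. Sema4b read 6.17 ± 0.216 and 6.09 ± 0.576 FPKM (interval of the log2 fold change from -0.21 to 0.17), and Sema4f read 1.70 ± 0.178 and 1.29 ± 0.153 FPKM (-0.38, adjusted p = 0.068) without overlap of the groups. Summed over the class, class 4 semaphorins gave 17.8 ± 0.434 FPKM in Ad-Con and 14.8 ± 0.956 in Ad-PDK4.

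Class 3 semaphorins are secreted, and most of them signal through neuropilins. Of 6 tested, Sema3e alone was called. Sema3e, which binds plexin D1 without a neuropilin and is known for limiting vessel growth, averaged 4.88 ± 0.317 FPKM in Ad-Con and 6.84 ± 0.176 in Ad-PDK4, a log2 fold change of 0.48 (SE 0.07, adjusted p = 0.0013). Its transcript start was followed at 41 bases by a match to the GAS motif TTCNNNGAA, the element bound by STAT factors downstream of interferon gamma, and the window printed is short because it lies within the transcript.
Sema3e, chr5:14025307-14025325, plus strand: ctggagacacTTCCTAGAA
A GAS match was found in the promoters of 3 of the 47 guidance genes that had a promoter in the RefSeq table (6.38%), against 9.55% of all 27025 genes with a promoter. The other class 3 members were not called. Sema3a, the classic collapsing factor of growth cones, was at 1.30 ± 0.130 and 1.59 ± 0.0604 FPKM without overlap (log2 fold change 0.27, adjusted p = 0.13). Sema3f, a ligand of neuropilin 2, also had no overlap (0.15, adjusted p = 0.12), and the interval for Sema3c, a ligand of both neuropilins, ran from -0.04 to 0.26. Sema3d (4.21 ± 0.371 and 4.12 ± 0.256 FPKM), known from cardiac development, had an interval of -0.24 to 0.18, and Sema3b (10.8 ± 1.24 and 8.87 ± 1.32 FPKM), a secreted neuropilin ligand, a log2 fold change of -0.28 with adjusted p = 0.095 and overlapping groups. Without Ad-PDK4 replicate 2 the adjusted p of Sema3b was 0.024, with a log2 fold change of -0.40.

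Plexins moved both ways within their subtypes. Plxna1, a receptor of class 3 semaphorins with neuropilins and of class 6 semaphorins alone, lies on chromosome 6 from 89316314 to 89362620 on the minus strand. It read 34.1, 35.7 and 31.0 FPKM in Ad-Con and 51.2, 57.9 and 44.5 FPKM in Ad-PDK4. The groups did not overlap, although the Ad-PDK4 libraries were spread more widely, and the log2 fold change was 0.60 (SE 0.10, adjusted p = 0.0022). Another gene on the opposite strand, Gm26811, covers 10.7% of the Plxna1 exon bases and read 0.114 ± 0.0795 and 0.265 ± 0.0369 FPKM.

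Plxna2, the receptor with which Sema6a interacts, lies on chromosome 1 from 194618218 to 194816869 on the plus strand and moved opposite to Plxna1. It read 3.83, 4.29 and 3.89 FPKM in Ad-Con and 2.77, 2.52 and 2.30 FPKM in Ad-PDK4. No Ad-PDK4 library reached the Ad-Con range, and the log2 fold change was -0.65 (SE 0.10, adjusted p = 0.0014). Plxna3, a receptor with neuropilin 2 for Sema3f, was not called at 3.63 ± 0.165 and 3.51 ± 0.534 FPKM with an interval of -0.33 to 0.22.

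Plxnd1, the receptor of Sema3e known from vascular patterning, lies on chromosome 6 from 115954811 to 115995005 on the minus strand. It read 5.05, 5.14 and 4.45 FPKM in Ad-Con and 2.53, 3.12 and 2.46 FPKM in Ad-PDK4. All Ad-PDK4 libraries were lower and the log2 fold change was -0.83 (SE 0.11, adjusted p = 0.00078). Its ligand Sema3e had risen in the same libraries, so that the FPKM ratio of Sema3e to Plxnd1 went from 0.924, 0.922 and 1.18 in Ad-Con to 2.63, 2.20 and 2.85 in Ad-PDK4.

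The plexins B also parted. Plxnb2 rose by a log2 fold change of 0.39 (SE 0.07, adjusted p = 0.0043), with 109 to 111 FPKM in Ad-Con and 132 to 162 FPKM in Ad-PDK4. Plxnb1, the receptor of Sema4d, fell by 0.51 on the log2 scale (SE 0.14, adjusted p = 0.023), from 2.67 ± 0.188 to 1.86 ± 0.349 FPKM. The Plxnb1 call ended in 5 of 15 alternatives. Those without Ad-Con replicate 1 or 2 or Ad-PDK4 replicate 1 or 3 were among them (adjusted p from 0.052 to 0.071). As the highest receptor rose, the 9 plexins together went from 160 ± 4.03 to 207 ± 23.4 summed FPKM (no test). Plxnb2 and Plxna1 together held 89.98% to 90.5% of the plexin FPKM in Ad-Con and 94.6% to 94.9% in Ad-PDK4, while Plxnb2 alone held 68.1% to 71.0% over all libraries.

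Nrp1, the neuropilin that serves as co-receptor for class 3 semaphorins and for VEGF-A, averaged 5.98 ± 0.164 FPKM in Ad-Con and 7.72 ± 0.0465 in Ad-PDK4. Its log2 fold change was 0.36 (SE 0.06, adjusted p = 0.0018). Nrp2, the co-receptor for Sema3f and VEGF-C, was below the filter with 24 to 41 reads per Ad-Con library and 62 to 94 per Ad-PDK4 library. Its mean FPKM was 2.42 times as high in Ad-PDK4 without overlap, and in a fit with no filter its adjusted p was 0.065.

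Among the Eph receptors, 2 of 3 tested EphA genes rose and 2 of 3 tested EphB genes fell, where 21.8% of all tested genes were higher and 20.8% lower. On each side 1 of the 2 calls (Epha3 and Ephb4) did not hold in all alternatives. Epha2, an EphA receptor prominent in epithelium and in inflamed or growing vessels, lies on chromosome 4 from 141301240 to 141329384 on the plus strand. It read 4.34, 5.02 and 4.25 FPKM in Ad-Con and 9.15, 10.1 and 9.07 FPKM in Ad-PDK4. Every Ad-PDK4 library lay far above the highest Ad-Con library, with a log2 fold change of 1.04 (SE 0.09, adjusted p = 5.7e-05). The study lists Epha2 among pyroptosis genes. Its change lay close to the 2-fold limit, and it was no longer counted as 2-fold without Ad-Con replicate 3 or without Ad-PDK4 replicate 2 (0.99).

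Epha3, a receptor of A-type ephrins abundant in mesenchyme, averaged 1.15 ± 0.148 and 1.65 ± 0.0974 FPKM, a log2 fold change of 0.48 (SE 0.14, adjusted p = 0.027). The call ended with the replicate number as a block (adjusted p = 0.054) and without Ad-Con replicate 2 or 3 or Ad-PDK4 replicate 1 or 3 (adjusted p from 0.060 to 0.085). The promoter of Epha3 held a GAS match 35 bases before the start, the other one in a called guidance gene.
Epha3 promoter, chr16:63864176-63864260, minus strand: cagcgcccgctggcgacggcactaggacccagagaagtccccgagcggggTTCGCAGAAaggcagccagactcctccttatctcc
Epha4, which binds ephrins of both types, was at 5.30 ± 0.202 and 4.89 ± 0.206 FPKM without overlap but was not called (log2 fold change -0.11, adjusted p = 0.23).

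Ephb6, an EphB receptor whose kinase domain is inactive, showed the largest fold decrease among the tested Eph receptors. It lies on chromosome 6 from 41605482 to 41620509 on the plus strand. The libraries read 4.21, 4.71 and 3.95 FPKM in Ad-Con and 2.08, 2.68 and 2.30 FPKM in Ad-PDK4. Again no library of one group entered the range of the other, with a log2 fold change of -0.84 (SE 0.12, adjusted p = 0.00087). Ephb4, the receptor of veins, fell by 0.20 on the log2 scale (SE 0.07, adjusted p = 0.045), a call that ended in 8 of 16 alternative analyses, the replicate block (adjusted p = 0.061) and leaving out Ad-Con replicate 2 or 3 or Ad-PDK4 replicate 1 or 3 (adjusted p from 0.11 to 0.15) among them. Ephb3, a further B-type receptor, read 9.04 ± 0.724 and 9.73 ± 0.669 FPKM with an interval of -0.08 to 0.29. In sum the EphA receptors gave 11.6 ± 0.276 FPKM in Ad-Con and 17.2 ± 0.241 in Ad-PDK4, and the EphB receptors 34.7 ± 1.84 and 30.7 ± 1.96 (no test).

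The A-type ephrins also moved in both directions. Efna5, a ligand of several EphA receptors, lies on chromosome 17 from 62604184 to 62881317 on the minus strand. It read 6.28, 5.30 and 6.17 FPKM in Ad-Con and 9.13, 9.76 and 9.76 FPKM in Ad-PDK4. The groups were clearly apart with a log2 fold change of 0.69 (SE 0.08, adjusted p = 0.00037).

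Efna4 and Efna1, both A-type ephrins, lie with Efna3 in a stretch of 66296 bases on chromosome 3, from 89271733 to 89338028, all on the minus strand. Efna4 (89333390 to 89338028) read 10.9, 9.40 and 10.8 FPKM in Ad-Con and 5.77, 7.36 and 4.98 FPKM in Ad-PDK4. The highest Ad-PDK4 library stayed below the lowest Ad-Con library, and the log2 fold change was -0.79 (SE 0.14, adjusted p = 0.0031). The opposite-strand gene 4731419I09Rik covers 10.5% of the Efna4 exon bases and averaged 0.0123 and 0.00535 FPKM.

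Efna1 (89271733 to 89281142), the best known ligand of Epha2, read 1.34, 1.77 and 1.66 FPKM in Ad-Con and 0.901, 0.874 and 1.29 FPKM in Ad-PDK4. These values rest on 28 to 57 reads per library. Ad-PDK4 replicate 3 came close to the lowest Ad-Con library without reaching it. The log2 fold change was -0.60 (SE 0.19, adjusted p = 0.035), and the call ended in 6 alternatives, those without Ad-Con replicate 2 or 3 or Ad-PDK4 replicate 1 or 2 among them (adjusted p from 0.094 to 0.10).

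Efna3, between them, read 1.08 ± 0.0417 and 0.776 ± 0.319 FPKM on 27 to 56 reads. It was not called (log2 fold change -0.49, adjusted p = 0.18) until Ad-PDK4 replicate 2 was left out (-0.77, adjusted p = 0.035). Gm15998 on the opposite strand covers 14.1% of its exon bases and read 0.630 ± 0.177 and 0.545 ± 0.118 FPKM. The study lists Efna3 among glycolysis genes. Efna2, on chromosome 10, was not called at 3.60 ± 0.216 and 4.05 ± 0.557 FPKM.

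B-type ephrins are the ligands of EphB receptors. Efnb2, the ligand of Ephb4 known as a mark of arteries and needed in mural cells, rose by a log2 fold change of 0.28 (SE 0.05, adjusted p = 0.0025) with 16.2 to 16.8 FPKM in Ad-Con and 19.6 to 20.3 in Ad-PDK4. Efnb1, an X-linked ephrin, was not called at 6.32 ± 0.632 and 6.43 ± 0.817 FPKM with an interval of -0.24 to 0.28. Efnb3, under the filter, had 11 to 20 reads in Ad-Con and 28 to 42 in Ad-PDK4.

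**Figure D3:**
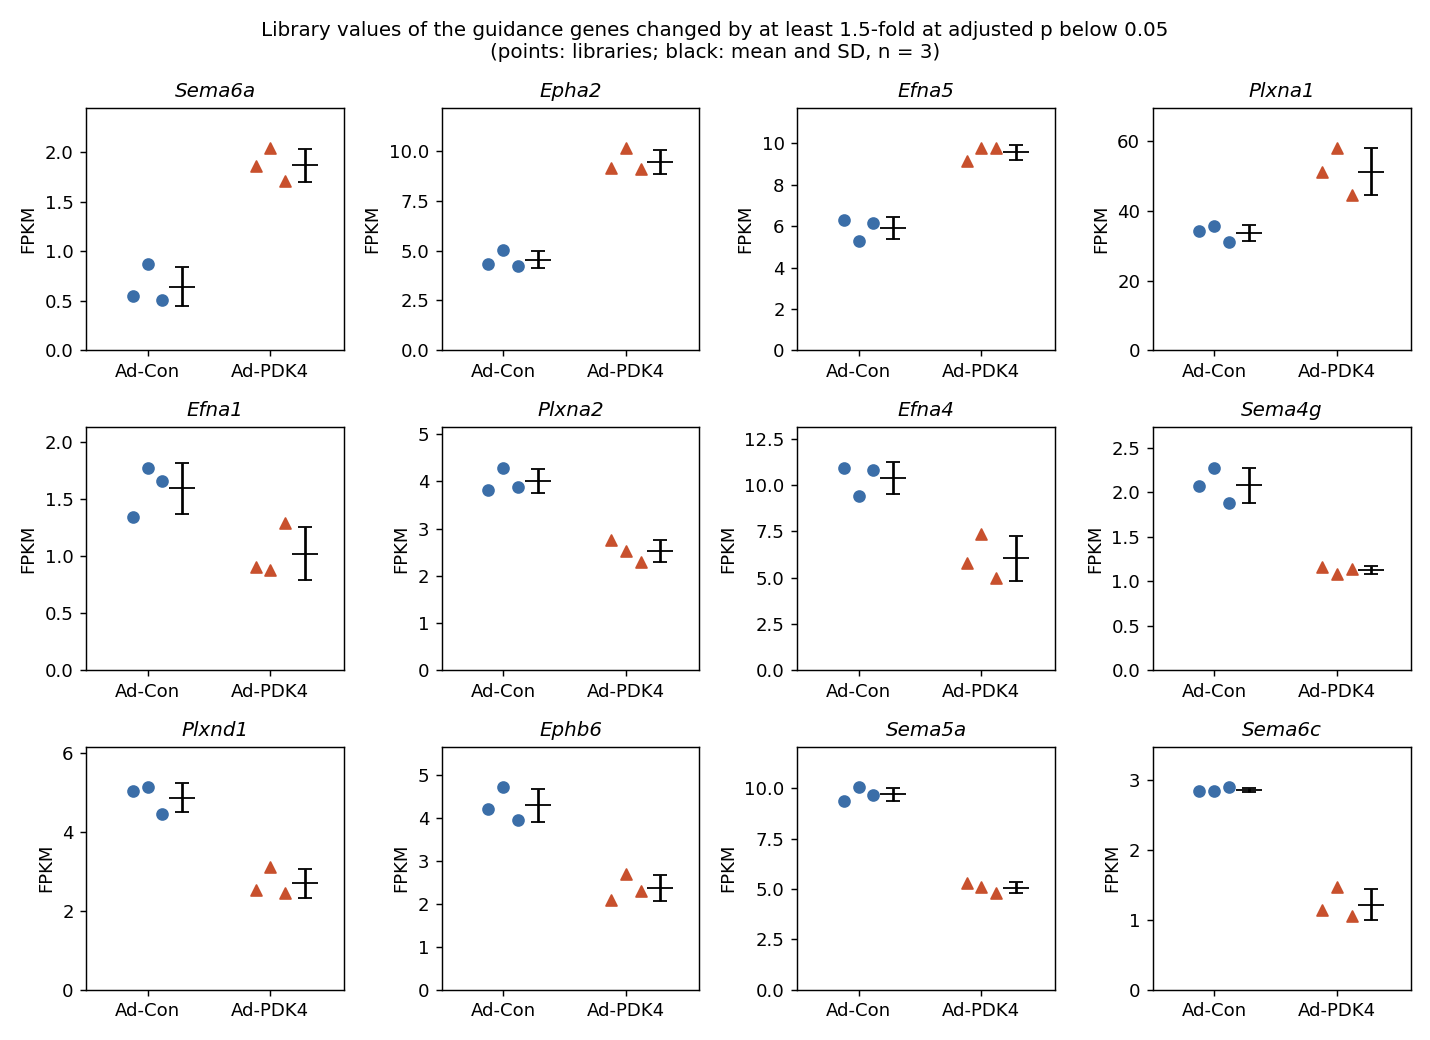
FPKM per library of the 12 guidance genes called at a fold of at least 1.5, with linear axes from 0. Points are libraries, black marks are the mean and SD (n = 3), and in every panel the Ad-Con and Ad-PDK4 libraries do not overlap.

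Some ligands and receptors that bind each other moved apart. Others moved together: the A-type ephrin Efna5 rose with the EphA receptors Epha2 and Epha3 (log2 fold changes 0.69, 1.04 and 0.48). The pairs given here were chosen after the values were seen, so their FPKM ratios carry no test. The ratio of Sema6a to Plxna2 was 0.159 ± 0.0383 in Ad-Con and 0.743 ± 0.0704 in Ad-PDK4, and that of Efnb2 to Ephb4 was 0.774 ± 0.0377 and 1.08 ± 0.0506. Sema4c relative to Plxnb2 went the other way, from 0.0696 ± 0.00255 to 0.0423 ± 0.00422. Within families, Efna5 relative to Efna4 went from 0.569 ± 0.00523 to 1.62 ± 0.318 and Plxna1 relative to Plxna2 from 8.40 ± 0.477 to 20.3 ± 2.40. Each of these ratios differed without overlap between the groups, which follows from members that had already separated the groups. The ratio of Sema7a to its receptor Plxnc1, both under the filter, was 0.904 ± 0.358 and 1.06 ± 0.448 and overlapped. Summed over all 53 genes, guidance transcripts gave 337 ± 6.06 FPKM in Ad-Con and 384 ± 30.4 in Ad-PDK4, and Plxnb2 and Plxna1 were the members that gained most FPKM. Semaphorins alone summed to 79.4 ± 2.06 and 73.3 ± 2.79 FPKM, and ephrins to 45.6 ± 1.09 and 48.4 ± 2.35 FPKM.

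The 18 genes under the filter were rare transcripts here. Epha10, Epha5, Epha6 and Sema5b had 0 reads in every library, and Ephb1 had at most 2. Together with Epha8, Plxnb3, Sema3g and Sema4a they made 9 genes with at most 10 reads in any library, for which no change was detectable at this depth. Epha7, an ephrin-A receptor, came nearest to the filter with 67 to 105 reads per library and overlapping groups. Ephb2, Plxna4 and Sema4d, the ligand of Plxnb1, had 11 to 33 reads in every library and also overlapped.

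In 5 genes under the filter the groups did not overlap. The share without overlap among all genes under the filter was not computed, so this count is not read as a result about them. Epha1, an epithelial EphA receptor, had 11, 9 and 23 reads in Ad-Con and 53, 46 and 56 in Ad-PDK4. Its mean FPKM was 3.48 times as high in Ad-PDK4 (adjusted p = 0.014 with no filter), but 6.01% of its exon bases are shared with the opposite strand of Zyx, which read 54.5 ± 2.38 and 82.1 ± 8.72 FPKM. Reads of the neighbours cannot be told apart without strand. Plxnc1, the receptor of Sema7a, had 50, 41 and 35 reads in Ad-Con and 13, 12 and 16 in Ad-PDK4, with a mean FPKM ratio of 0.316 (adjusted p = 0.040 with no filter). Sema7a, a lipid-anchored semaphorin, had 12 to 18 and 3 to 7 reads (ratio 0.380, adjusted p = 0.12). Efnb3 and Nrp2, given above, are the other two, with adjusted p = 0.052 for Efnb3 at a ratio of 2.05.

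RefSeq promoters were matched for 47 of the 53 genes (61 promoters), and their median GC content was 64.0% against 52.7% for all promoters. The core of the ISRE, the element of type I interferon response genes, was found in 2 of the 47 genes (4.26%, against 3.99% of all genes), the NF-kB motif in 1 (2.13%, against 1.89%) and the AP-1 motif in 3 (6.38%, against 8.97%). These shares are near those of all genes. Of the 19 called guidance genes with a promoter in the table, 4 held a match, all shown above. A match is a description of the sequence and not a site of binding.

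The partners of these families were followed with a list of 105 signalling and other guidance genes, of which 104 were in the table and 79 were tested. In it 23 rose and 21 fell, where the background was 21.8% higher and 20.8% lower. These counts include Tiam1, Unc5a, Ntng2, Plxdc1, Nrcam and Ngef, whose mean was below 0.5 FPKM in the lower group. They passed the filter only through the group where they were high. Of 32 tested genes of semaphorin and plexin signalling, 10 rose and 9 fell. Rnd1, a small GTP-binding protein that binds plexins and opens their GTPase-activating domain, rose from 5.11 ± 0.103 to 17.9 ± 1.44 FPKM (log2 fold change 1.79, SE 0.07, adjusted p = 1.3e-06). Of its relatives, Rnd3 rose (0.37, adjusted p = 0.011) and Rnd2 fell (-0.40, adjusted p = 0.0053). Plxdc1, a plexin domain protein of tumour endothelium, fell from 1.15 ± 0.115 to 0.234 ± 0.0324 FPKM (-1.90, adjusted p = 7.3e-04). Crmp1, a collapsin response mediator that relays Sema3a signals to the cytoskeleton, fell from 7.15 ± 0.0311 to 2.86 ± 0.416 FPKM (-1.30, adjusted p = 5.6e-05), and Nrcam, an adhesion partner of neuropilins, from 1.04 ± 0.118 to 0.426 ± 0.0462 FPKM (-1.12, adjusted p = 0.0049).

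Of 26 tested genes of Eph and ephrin signalling, 5 rose and 5 fell, which is near the background of 21.8% higher and 20.8% lower. The largest rise and the largest fall in this list were of exchange factors for small GTPases that bind Eph receptors. Tiam1, which activates Rac, rose from 0.202 ± 0.0980 to 1.003 ± 0.0883 FPKM (1.92, adjusted p = 0.0034). Ngef, ephexin, which acts downstream of EphA receptors, fell from 1.74 ± 0.108 to 0.470 ± 0.0881 FPKM (-1.70, adjusted p = 2.7e-04). Both genes passed the filter only through the group where they were high.

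Of the VEGF genes that share neuropilins with the semaphorins, 7 were tested, and 3 rose and 1 fell (background 21.8% and 20.8%). The ligands Vegfa (30.6 ± 0.887 and 40.7 ± 0.818 FPKM, log2 fold change 0.41), Vegfc (6.84 ± 0.775 and 13.8 ± 1.56 FPKM, 0.998) and Vegfd (23.1 ± 1.91 and 54.2 ± 2.62 FPKM, 1.23) rose, as did Nrp1. Flt1, a VEGF receptor and also one of the endothelial markers, fell by 0.66 on the log2 scale. Kdr, the other endothelial marker among these receptors, stood at 0.68 (adjusted p = 0.065), Flt4 at 0.23 and the ligand Vegfb at -0.11, none of them called. Of 14 tested genes of the Slit, netrin, RGM and FLRT families, 5 rose and 6 fell, against the same background. Slit3 rose from 4.57 ± 0.782 to 15.1 ± 0.731 FPKM (1.72, adjusted p = 2.0e-05) and Slit2 from 5.09 ± 0.384 to 12.1 ± 0.137 FPKM (1.24, adjusted p = 7.4e-06). Both are secreted ligands of Robo receptors, whose genes Robo1 to Robo4 were under the filter. The highest of them, Robo1, read 0.658 ± 0.0331 FPKM in Ad-Con and 0.307 ± 0.0394 FPKM in Ad-PDK4 (not tested).

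**Figure D4:**
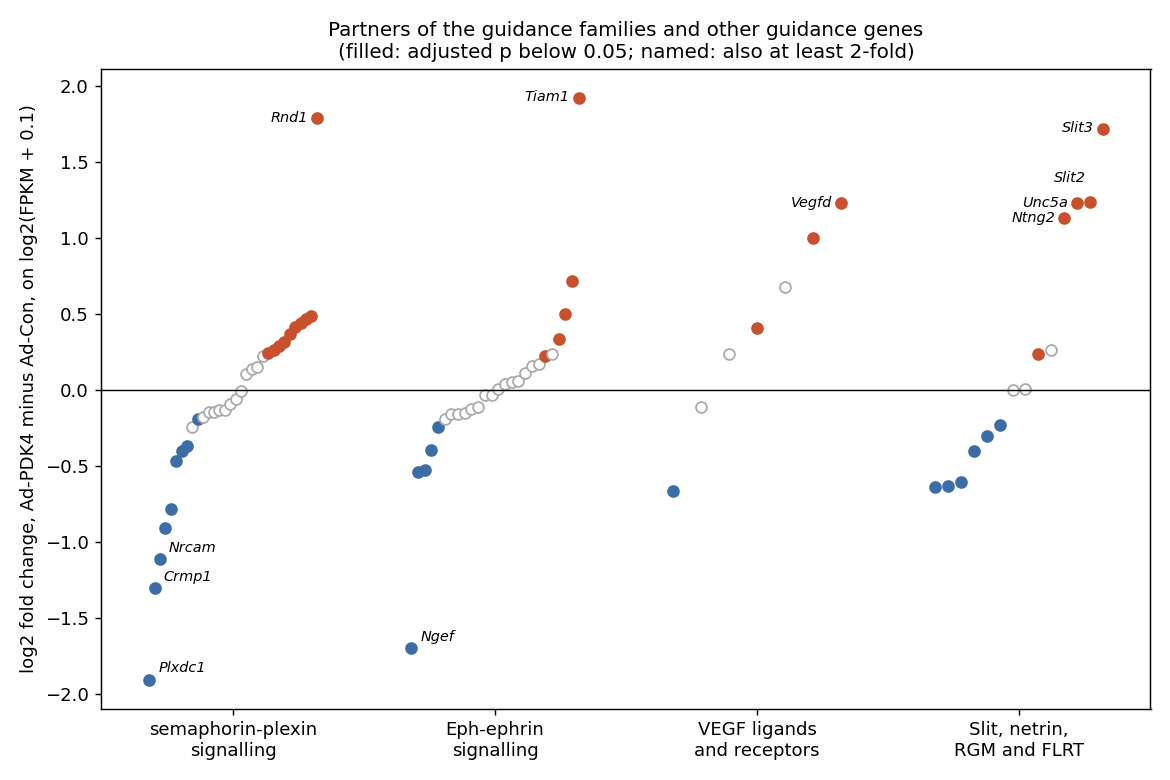
log2 fold change (Ad-PDK4 minus Ad-Con, on log2(FPKM + 0.1)) of the 79 tested partner genes and other guidance genes in 4 lists, each point a gene. Filled points passed an adjusted p of 0.05 and named ones also changed by at least 2-fold, from -1.90 for Plxdc1 to 1.92 for Tiam1. Plxdc1 and Tiam1 passed the filter only through the group where they were high.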

How the data were processed

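RNA was extracted from cells described as mouse vascular smooth muscle cells, and 6 libraries (3 Ad-Con, 3 Ad-PDK4) were compared by their treatment labels. Per the labels, CASAVA 1.8, fastp, HISAT2 2.0.5, featureCounts 1.5.0-p3 and DESeq2 1.20.0 were used. The authors deposited FPKM per gene and library without pooling. FPKM times gene length gave whole reads for 100% of non-zero values (tolerance 0.01). The labels name GRCm39, but 98.3% of the gene identifiers found in GENCODE M21 (GRCm38) had the same coordinates there, so GRCm38 is used. The labels name a SMARTER library kit and the methods a NEBNext kit, and strand use in counting is not given in the sources used here.

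The test was limma 3.58.1 (R 4.3.3; trend and robust moderation) on log2(FPKM + 0.1) over the 13423 genes with a mean of at least 0.5 FPKM, without covariates, and adjusted by Benjamini-Hochberg. All adjusted p-values are from this fit unless stated. A count model was not the main test because the unit is FPKM. The procedure was tested on simulated data. Members past adjusted p 0.05 and 1.5-fold are given per library. Of the partner list the 4 largest rises, the 4 largest falls and some direct binding partners are named. Other direct binding partners that were called are not named. The members and gene lists were chosen with earlier results of these data known. Same-numbered libraries had correlations of deviations of -0.046, -0.031 and -0.0013, which showed no shared deviation by number. Whether the numbers mark a pairing is not given in the sources used here. Within-group library pairs differed beyond sampling noise. The chi-square per degree of freedom was 10.9 for Ad-PDK4 replicates 2 and 3 and 3.99 to 5.14 for the remaining pairs. RefSeq promoters (GRCm38.p6) were searched on both strands. Among the alternatives, limma-voom used TMM library sizes computed from the whole reads.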

Additional observations from a re-analysis of the deposited data

How the results depend on the processing

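Results were recomputed with a pseudocount of 1 or 0.01, no filter or a mean of at least 5 FPKM, rescaling to TPM or by the median of ratios, quantile normalization, plain moderation, the replicate block, limma-voom on recovered reads, and leaving out each library, 16 in all. Of the 21 called guidance genes, 16 kept direction and call in each alternative that tested them (15 for the 6 whose mean was under 5 FPKM: Sema6a, Plxna2, Sema4g, Plxnd1, Ephb6 and Sema6c), 5 (Epha3, Ephb4, Plxnb1, Sema6d and Efna1) lost the call in at least 1, and 0 changed sign. The number lower was 4 at a mean of at least 5 FPKM, where 18 members were tested. The number higher by 2-fold was 0 with a pseudocount of 1, 1 at a mean of at least 5 FPKM, 4 with TPM, and 1 to 3 with a library left out (1 without Ad-Con replicate 3 or Ad-PDK4 replicate 2). The number lower by 2-fold was 0 with a pseudocount of 1 and 0 at a mean of at least 5 FPKM. The median log2 fold change of tested members was 0.109 at a mean of at least 5 FPKM and ran from -0.0925 to 0.0402 with a library left out, the highest without Ad-PDK4 replicate 3. With the replicate number as a block, 8 members were higher and 12 lower: Epha3 and Ephb4 lost the call and Sema3b (adjusted p = 0.028) gained it. Whether the numbers mark a pairing is not given, and the cause of these changes of call was not tested.

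Among uncalled genes, 5 changed sign. Efnb1 was at -0.027 with quantile normalization and ran from -0.0723 to 0.107 with a library left out (negative without Ad-Con replicate 3 or Ad-PDK4 replicate 1). Sema6b was at -0.0351 with limma-voom and ran from -0.112 to 0.195 (negative without Ad-Con replicate 2 or 3 or Ad-PDK4 replicate 1 or 2). Sema4b was at 0.0182 with TPM and ran from -0.0925 to 0.0402 (positive without Ad-Con replicate 1 or Ad-PDK4 replicate 3), Sema3d at 0.0122 with TPM and from -0.0912 to 0.0335 (positive without Ad-Con replicate 2 or Ad-PDK4 replicate 3), and Plxna3 from -0.143 to 0.068 (positive without Ad-PDK4 replicate 3). The cause was not tested. Of the uncalled, 4 (Sema3a, Sema3b, Sema4f and Efna3) passed the threshold in at least 1 alternative.

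With 3 libraries a group, 27 reads for the rarest tested member in a library, and bulk RNA, small changes of low genes such as Efna1, Efna3 and Sema6b are not resolved. The fold change on the log2(FPKM + 0.1) scale understates that of low genes. Protein and signalling were not measured.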
